A study of Mus musculus with 12 samples.

Results

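The zinc finger protein genes described here were the 357 protein-coding genes on mouse autosomes, out of 20807, whose symbol in the mm10 (GRCm38) annotation is Zfp followed by a number. Zfp42 was left out. They held 116099 of the 21867550 CpG sites in the deposited count table. Each gene was split into its first 1 kb (15058 sites), its last 3 kb (13038 sites) and the body between them (88003 sites). A gene was called clustered when another such gene lay under 100 kb away, which was so for 204 genes with 39070 sites. The remaining 153 genes, with 77029 sites, were called single. Symbols alone defined the set, so zinc finger genes with other names could lie beside a gene called single.

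Zfp genes mostly encode proteins of the C2H2 type, in which repeated fingers, each holding a zinc ion between a pair of cysteines and a pair of histidines, bind DNA. Many also carry a KRAB domain, which recruits the co-repressor TRIM28 and with it SETDB1, HP1 and DNA methyltransferases, and in embryonic stem cells such proteins silence retrotransposons and protect imprinted regions. KRAB zinc finger genes lie in large clusters of recent duplicates, and a finger array is usually coded by a single last exon made of near-identical units. Among the 357 genes, 345 held a match to a C2H2 finger, with 3812 fingers in all, and 177 held a match to KRAB. Genes with that match are called KRAB genes. KRAB was matched by a single pattern of letters in the longest coding sequence, so genes without a match may still carry the domain. Of the KRAB genes 135 were clustered, against 69 of the 180 others.

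CpG methylation was measured by enhanced reduced representation bisulfite sequencing (eRRBS), which sequences bisulfite-converted restriction fragments, in 12 lines of mouse embryonic stem (ES) cells. All lines carried knockouts of Dnmt1, Dnmt3a and Dnmt3b (TKO), so the maintenance enzyme was missing too, and stably expressed a human enzyme from a pPyCAGIZ vector with its CAG promoter under Zeocin selection. There were 2 lines, labelled as biological replicates, for each of 6 groups: WT DNMT3A, WT DNMT3B (set a), DNMT3B N656I, WT DNMT3B (set b), DNMT3B K777A and DNMT3B N779A. The residue changed in N656I lies in the catalytic loop and those changed in K777A and N779A lie in the target recognition domain. DNMT3A and N656I were compared with the same set a lines, and K777A and N779A with the same set b lines, so comparisons that share a set are not independent of each other. Methylation levels are methylated reads as a percentage of all reads over the CpG sites named, with both strands of a site merged. No unmethylated control such as the parental TKO line was analysed here, so levels near 1% were not corrected for incomplete bisulfite conversion.

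The 12 libraries held 16224222 to 36029921 reads on CpG sites. DNMT3B set a line 2 stood apart, with 1030180 covered sites at 15.7 reads each, against 3584666 to 10717789 sites at 2.55 to 5.18 reads each in the other 11 lines. In Zfp genes this line covered 6192 sites and the deepest coverage was 62329 sites, with 99559 to 230353 reads per line, and only 407 Zfp sites were covered in all 12 lines. The comparisons of groups and within lines that rest on this narrow library are also given without it where it turned a sign or changed a call. The count table holds no expression data, so neither the ES cell identity nor expression of any Zfp gene could be checked. Read numbers for a gene, window or stretch are summed over its CpG sites, so a read that spans several sites is counted once at each. Reads also carried no molecular identifiers, so the read numbers given are not numbers of independent molecules.

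The sequences below show what the enzymes met in finger arrays and at gene starts, with each CpG in capitals. The first are a pair of tandem finger units of Zfp260, at chr7:30105073-30105240 on the plus strand of GRCm38, and of Zfp667, at chr7:6305409-6305576 on the plus strand, the genes with the most finger sites covered in every line. Zfp316, at chr5:143253632-143253799 on the minus strand, was added after its values were seen because it had the most finger sites covered in at least 10 lines. All stretches are 168 bases long and start at the first cysteine codon.
Zfp260: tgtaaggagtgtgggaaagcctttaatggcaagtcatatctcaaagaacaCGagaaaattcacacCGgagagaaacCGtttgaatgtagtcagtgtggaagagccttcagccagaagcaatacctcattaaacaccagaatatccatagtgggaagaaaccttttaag
Zfp667: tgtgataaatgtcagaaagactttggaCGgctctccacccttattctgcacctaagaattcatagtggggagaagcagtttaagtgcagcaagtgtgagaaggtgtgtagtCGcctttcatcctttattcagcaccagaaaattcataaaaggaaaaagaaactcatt
Zfp316: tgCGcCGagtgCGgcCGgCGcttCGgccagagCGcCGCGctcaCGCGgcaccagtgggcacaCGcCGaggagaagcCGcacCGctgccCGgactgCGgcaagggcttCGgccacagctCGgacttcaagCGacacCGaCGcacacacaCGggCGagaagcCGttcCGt
The arrays of Zfp260 and Zfp667 held 3 and 2 CpG sites and that of Zfp316 held 26. The Zfp260 stretch had few reads, from 2 to 45 per line, and its level was 52.9% and 50% with DNMT3A, 16.7% and 13.0% with N656I and 20% and 25% with K777A. In N779A it was 0% and 20%, and in all 4 WT DNMT3B lines no read of the stretch was methylated. At the Zfp260 site in the letters acacCGgagag, which code the linker between fingers, 7 of 9 reads were methylated in DNMT3A, 0 of 7 in DNMT3B set b and 0 of 8 in K777A. The Zfp667 stretch differed, with 39 of 39 reads methylated in DNMT3B set a line 2, 5 of 9 in DNMT3B set b line 2 and 7 of 11 in DNMT3A line 2, against 2 of 18 in K777A line 2, 0 of 20 in N779A line 2 and 4 of 8 in N656I line 2. Of the other lines N779A line 1 had 1 methylated read of 4, and the remaining 5 had none among 1 to 6 reads each. Over the 26 sites of the CpG-rich Zfp316 stretch only 2 methylated reads were counted in all lines together. DNMT3B set a line 2 had no read there, and the other 11 lines were at 0% to 0.637%. Their 48 to 433 reads per line are sums over the 26 sites, and single sites had 33 to 98 reads over all lines together.

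The next pair are promoter windows of 300 bases from RefSeq (GRCm38), also chosen after their values were seen, to set an unmethylated start beside a methylated one. That of Zfp148, a factor that binds GC-rich elements, is chr16:33380525-33380824, and that of Zfp57, the KRAB protein that keeps imprinted regions methylated, is chr17:37000913-37001212, both on the plus strand.
Zfp148: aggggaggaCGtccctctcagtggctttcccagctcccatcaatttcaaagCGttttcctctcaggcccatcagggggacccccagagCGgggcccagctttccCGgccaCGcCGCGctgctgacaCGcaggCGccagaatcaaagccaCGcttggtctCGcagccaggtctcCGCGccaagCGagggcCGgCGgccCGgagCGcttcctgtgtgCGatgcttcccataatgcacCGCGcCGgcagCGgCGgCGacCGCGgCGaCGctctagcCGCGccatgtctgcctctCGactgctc
Zfp57: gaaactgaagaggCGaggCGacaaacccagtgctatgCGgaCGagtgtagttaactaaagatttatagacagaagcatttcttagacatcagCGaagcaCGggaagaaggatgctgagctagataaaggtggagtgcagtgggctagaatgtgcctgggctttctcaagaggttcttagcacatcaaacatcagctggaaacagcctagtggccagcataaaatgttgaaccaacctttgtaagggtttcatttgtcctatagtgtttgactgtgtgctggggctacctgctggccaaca
The Zfp148 window held 32 CpG sites and levels of 0% to 2.70% from 14 to 178 reads per line, summed over its sites. The Zfp57 window held 6, and in the DNMT3A lines 24 of 36 and 4 of 4 reads, summed over sites, were methylated. In the other 10 lines at most 6 reads were, out of at most 52, and in DNMT3B set a line 2 and DNMT3B set b line 1 none of its sites was covered. Across the 356 windows of the 295 Zfp genes with a RefSeq entry the median number of CpG was 14, against 7 over the windows of all 27025 genes.

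Zfp genes carried methylation in all 12 lines, with the highest levels in the DNMT3A lines and the lowest in the K777A lines. Over all Zfp sites DNMT3A lines reached 27.3% and 29.9% and DNMT3B set a lines 14.1% and 12.8%. N656I reached 11.8% and 8.58%. DNMT3B set b gave 11.9% and 11.1%, K777A 5.72% and 6.83%, and N779A 10.0% and 10.2%. In none of the 4 comparisons did the lines of the groups overlap. The group means were 28.6% ± 1.88 for DNMT3A against 13.4% ± 0.94 for set a (SD, n = 2), a difference of 15.2 points and a ratio of 2.13. N656I, at 10.2% ± 2.26, was 3.24 points below set a (ratio 0.759). K777A, at 6.27% ± 0.79, was 5.24 points below the 11.5% ± 0.53 of set b (ratio 0.545), and N779A, at 10.1% ± 0.09, was 1.42 points below it (ratio 0.877). With 2 lines against 2, an exact two-sided permutation test cannot give less than p = 0.33, which each of these comparisons gave, so no difference between groups passes a threshold here. Without DNMT3B set a line 2 the DNMT3A difference was 14.5 points and the N656I difference -3.90 points. The N656I difference was -4.84 points without N656I line 1 and -1.64 points without N656I line 2. In all other protein-coding genes the same ratios were 2.21, 0.781, 0.524 and 0.860.

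The first 1 kb of Zfp genes was almost free of methylation in every line (the plot of compartments by line). With DNMT3A its level was 1.56% and 2.05%, and in the 10 lines with a form of DNMT3B it ran from 0.619% to 1.52%. The body held 36.4% and 38.2% with DNMT3A, 17.9% and 15.9% with DNMT3B set a, and 15.2% and 11.1% with N656I. It held 14.5% and 14.3% with DNMT3B set b, 7.37% and 8.49% with K777A, and 12.2% and 13.5% with N779A. In the body the DNMT3A lines were far above all others and no comparison had overlapping lines, with ratios of 2.21, 0.780, 0.551 and 0.894 in the order above. The last 3 kb held 32.5% and 32.9% with DNMT3A and 6.32% and 7.45% with K777A, and the lines of N656I and set a overlapped there (means 12.1% ± 2.44 and 14.1% ± 2.16, SD, n = 2, exact permutation p = 0.67). Without DNMT3B set a line 2 both N656I lines were below the remaining set a line, at 15.6%.

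**Figure D1:**
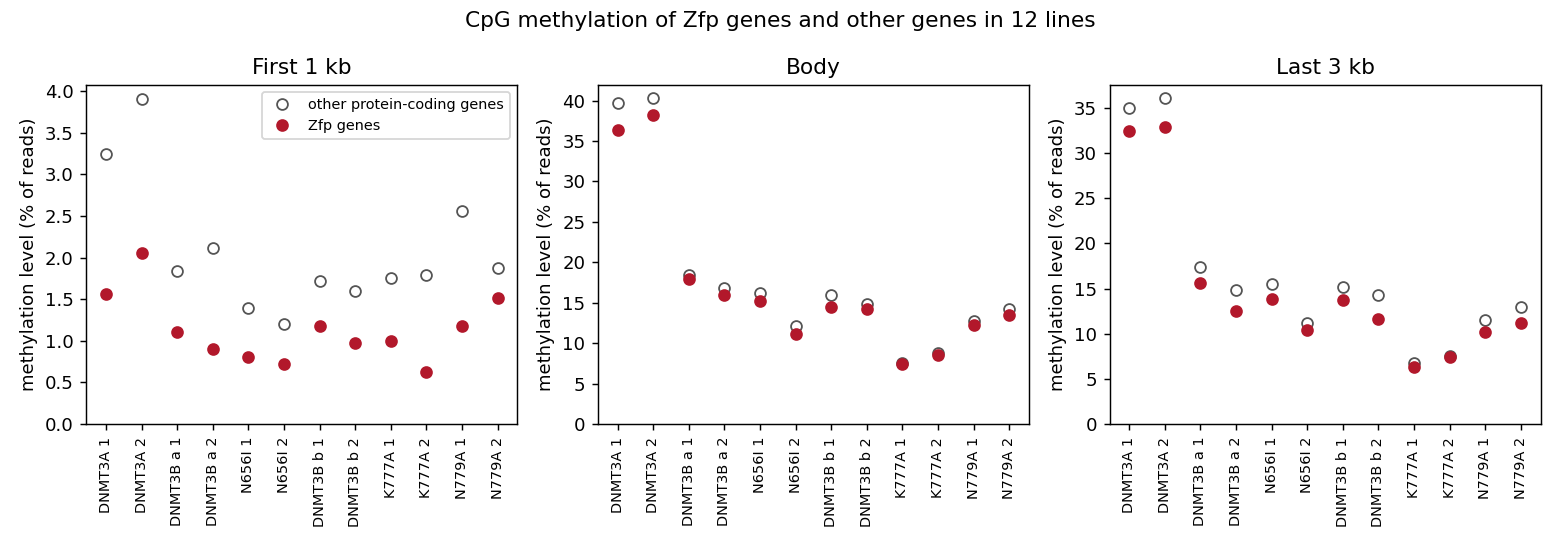
Methylation level (percent of reads) of Zfp genes (filled) and of all other autosomal protein-coding genes (open) in each of the 12 lines, in the first 1 kb, the body and the last 3 kb, with a separate vertical scale for each panel. In all 12 lines the Zfp point lies below the open point in each panel, with means over lines of 1.13% against 2.08% in the first 1 kb.

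Over all covered sites Zfp genes were less methylated than other protein-coding genes in all 3 compartments. The mean over the 12 lines was 1.13% in the first 1 kb of Zfp genes against 2.08% in other genes, a difference of -0.95 ± 0.50 points (SD over lines). In the body it was 17.1% against 18.1% (-1.03 ± 0.88 points) and in the last 3 kb 14.9% against 16.5% (-1.66 ± 0.91 points). Each difference was negative in 12 of 12 lines, with an exact two-sided sign-flip permutation p of 0.000488, the smallest that 12 lines can give, and 0.00144 after Benjamini-Hochberg adjustment over the 53 within-line comparisons made. These p-values say how steady a difference was over lines of the same genome, not over genes. Without DNMT3B set a line 2 the differences were -0.93, -1.05 and -1.60 points. The difference at the start was -0.61 points without very deep sites and -1.57 points at sites with 10 or more reads. At sites covered in all 12 lines, of which 407 lay in Zfp genes, the body difference turned to +1.23 points (exact sign-flip permutation p = 0.0742), that of the last 3 kb was -2.24 points (p = 0.0981, same test) and that of the start -5.59 points.

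CpG density differed between the sets. Density was counted as CpG sites in the 200 bases around a site, and a site with 12 or more was called dense. In the first 1 kb 63.7% of Zfp sites and 69.1% of sites in other genes were dense, whereas in the body 6.38% and 3.77% were, and in the last 3 kb 12.6% and 9.02%. At dense start sites the levels were close, 0.65% against 0.76% (lower in 10 of 12 lines, exact sign-flip permutation, adjusted p = 0.0192). At start sites with 3 to 5 CpG they were 3.64% against 9.42%, and at those with 6 to 11 CpG 1.40% against 4.13%, lower in Zfp genes in 12 of 12 lines (adjusted p = 0.00144 for both, same test). More Zfp genes had a dense site in the first 1 kb, 260 of 357 (72.8%) against 12429 of 20450 (60.8%), and among genes with such a start the difference was -0.16 points (lower in 10 of 12 lines, adjusted p = 0.00863, same test). With both sets given the same density mix, however, the start difference was wider, at -1.48 points. In the body, Zfp sites with 1 to 2 CpG were 0.44 points above those of other genes, and those with 6 to 11 were 1.34 points below. With the same density mix, the body difference was -0.37 points (exact sign-flip permutation p = 0.0557) and that of the last 3 kb -0.67 points.

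Methylation rose along the gene over the first several kb in all groups. Within 250 bases of the start the means of DNMT3A, DNMT3B set b and K777A were 1.08%, 0.64% and 0.74%. Between 1000 and 2000 bases they were 15.6%, 4.19% and 2.45%, and between 4000 and 8000 bases 34.1%, 12.9% and 7.18%. Other genes rose in the same way, from 3.03% to values near those of Zfp genes with DNMT3A. Towards the gene end no such slope was seen, and between 1000 and 2000 bases before the end the means were 30.6%, 12.6% and 7.01%. The last 3 kb was 2.24 ± 1.41 points below the body in Zfp genes and 1.62 points below it in other genes, in 12 of 12 lines (exact sign-flip permutation, adjusted p = 0.00144 for both). With an equal density mix in both compartments the Zfp difference was +0.10 points (p = 0.63, exact sign-flip permutation).

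**Figure D2:**
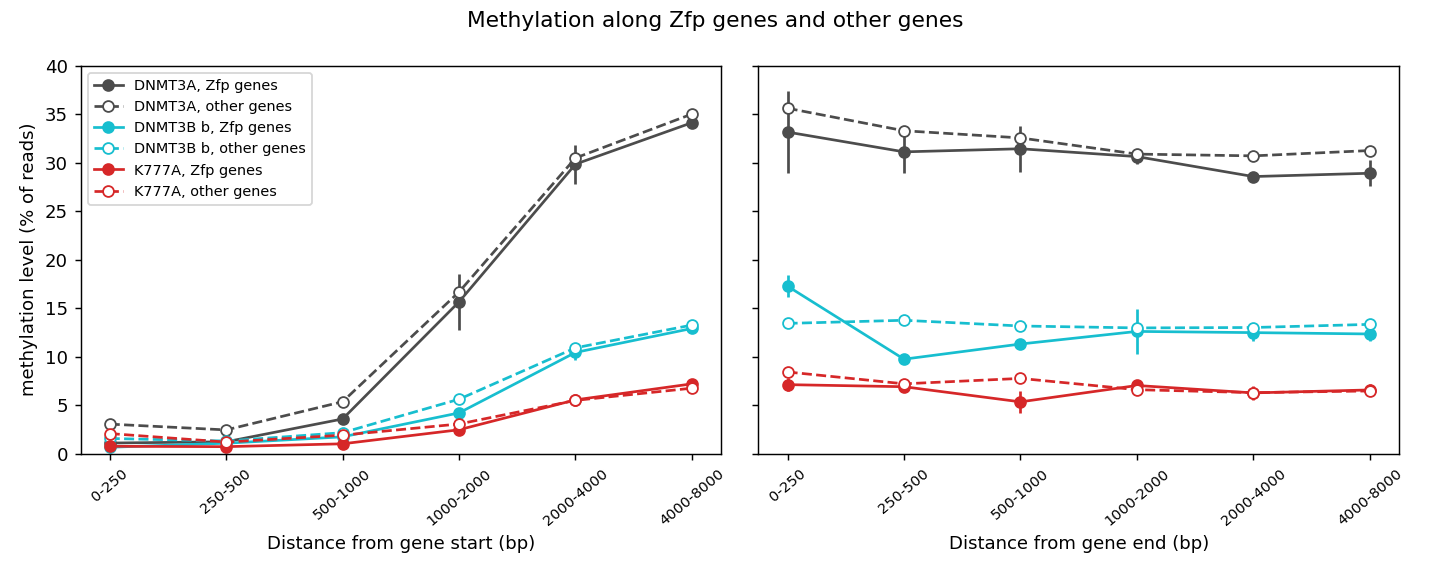
Mean methylation level (percent of reads) of Zfp genes (filled, solid) and other genes (open, dashed) against distance inside the gene from its start (left) and from its end (right), for DNMT3A, DNMT3B set b and K777A. Bars span the 2 lines of a group for Zfp genes. With DNMT3A the level rises from 1.08% within 250 bases of the start to 34.1% between 4000 and 8000 bases.

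The starts of most Zfp genes held little methylation. Of 297 genes with at least 200 reads in the first 1 kb over the 12 lines together, 181 had a level of at most 1% over the pooled reads, 276 of at most 5% and 11 of more than 10%, and the median was 0.819%. These were 60.9%, 92.9% and 3.7% of the Zfp genes, beside 56.5%, 84.6% and 10.2% of 14087 other protein-coding genes with as many reads, whose median was 0.856%. The other 60 Zfp genes had too few reads. The start of Zfp281, a factor of the pluripotency network, was at 0.39% from 3372 reads, that of Zfp423, a regulator of neural and adipocyte differentiation, at 0.74% from 6582, and that of Zfp809, the KRAB protein that silences murine leukemia proviruses, at 0.42% from 954. Zfp568, which represses a placental transcript of Igf2, was at 0.26%. The 11 methylated starts were those of Zfp474 (30.2%), Zfp988, Zfp982, Zfp683, Zfp57 (18.3% from 202 reads), Zfp985, Zfp575, Zfp831, Zfp981, Zfp677 and Zfp869 (11.4%). These levels weight lines by their reads, and as a mean of lines Zfp988 was at 17.9% in place of 28% and Zfp683 at 26.6% in place of 20.1%. At Zfp982 the DNMT3A lines were at 49.1% and 51.4%, the set a lines at 36.0% and 29.8%, the set b lines at 0% and 23.1% and the K777A lines at 0% and 6.15%. At the start of Zfp57 the DNMT3A lines were at 68.8% and 50.0% and the other covered lines at 0% to 33.3%.

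Clustered Zfp genes were less methylated than single ones in the body and slightly more at the start. Over all sites the clustered genes were at 22.2% and 24.1% with DNMT3A and the single genes at 29.7% and 32.9%, and with K777A at 4.93% and 5.57% against 6.15% and 7.48%. Starts made up 6995 of 39070 clustered and 8063 of 77029 single sites, so compartments were compared separately. In the body the mean over lines was 15.1% in clustered against 17.8% in single genes, a difference of -2.71 ± 1.98 points, lower in 12 of 12 lines (exact sign-flip permutation, adjusted p = 0.00144). The group means were 32.5% against 39.1% for DNMT3A, 12.3% against 15.2% for DNMT3B set b, and 7.13% against 8.25% for K777A. The difference was negative in 12 of 12 lines in each of the 4 density classes, by 2.42, 2.55, 4.56 and 0.78 points from the sparsest to the densest. In the first 1 kb clustered genes were 0.35 points higher, in 11 of 12 lines (adjusted p = 0.00498, same test). In the last 3 kb the difference was -0.89 ± 2.27 points, negative in 10 of 12 lines and positive in both DNMT3B set a lines (adjusted p = 0.236, same test). Without DNMT3B set a line 2 it was -1.45 points, with an unadjusted p of 0.00488 by the same exact permutation test. By density class the difference in the last 3 kb was -2.40 points at 1 to 2 CpG and -2.48 points at 3 to 5 CpG, negative in 11 of 12 lines in each (adjusted p = 0.00235 and 0.00739, same test). At 6 to 11 CpG the difference was +1.09 points, positive in 7 of 12 lines (adjusted p = 0.197, same exact permutation test), or +0.62 points without DNMT3B set a line 2. At 12 or more CpG it was +1.02 points, positive in 9 of 12 lines (adjusted p = 0.0928, same test). Of the clustered sites 12.7% lay in a stretch of 62 bases that recurs elsewhere in the genome, against 6.32% of single sites, so the placement of reads is less certain there. At the 407 sites covered in all 12 lines, 122 of them clustered, the overall difference was +2.28 points, the opposite of the -3.41 ± 2.30 points over all covered sites.

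**Figure D3:**
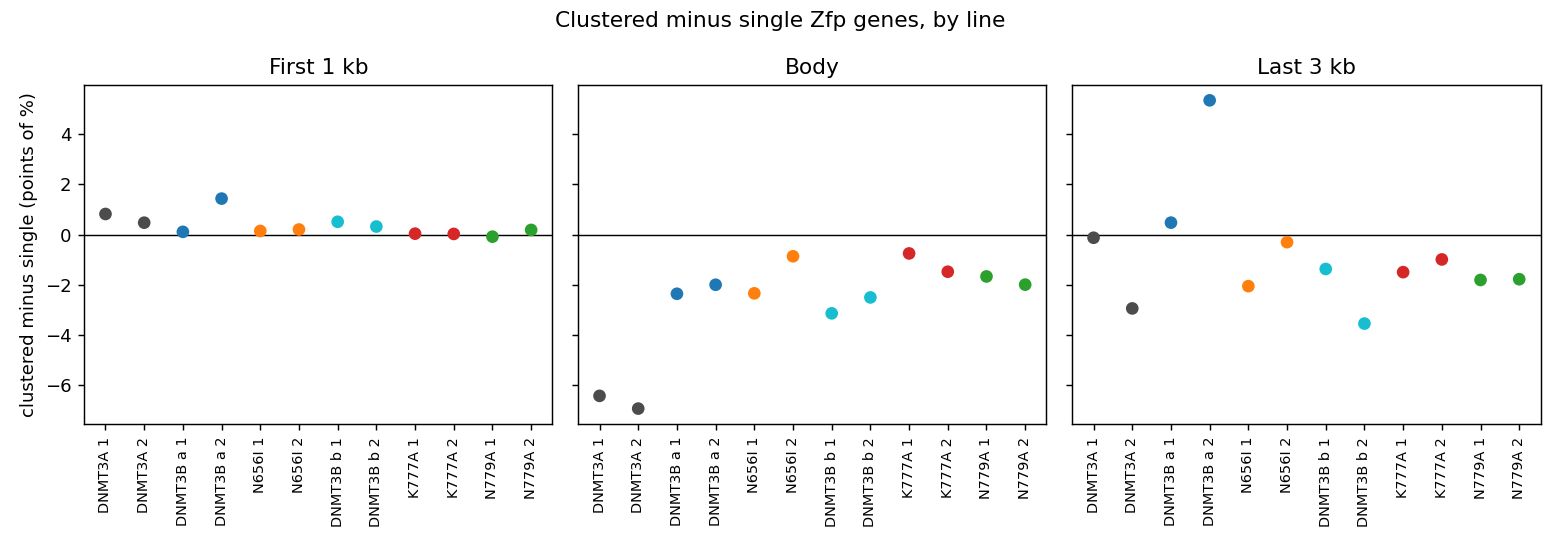
Difference in methylation level between clustered and single Zfp genes (points of percent) in each of the 12 lines, for the first 1 kb, the body and the last 3 kb. All 12 body points lie below 0, with a mean of -2.71, and DNMT3B set a line 2 is the highest point of the last 3 kb at 5.35.

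Of the 49 clusters, 15 held 5 or more genes, with 119 genes in all. Beyond the first 1 kb their means over 12 lines ran from 7.10% to 19.0%. The lowest was the cluster of 6 genes from Zfp628 to Zfp580 (chr7:4915217-5053723), none with a KRAB match, at 16.9% with DNMT3A and 2.28% with K777A. Next came the 7 genes from Zfp553 to Zfp689 (chr7:127233061-127449158) at 8.40%. The largest clusters, of 15 genes each, from Zfp677 to Zfp994 on chromosome 17 and from Zfp84 to Zfp146 on chromosome 7, were at 15.2% and 17.5%, and the 14 genes from Zfp712 to Zfp748 on chromosome 13 were at 11.9%. The starts of 14 of the 15 clusters were at 0.52% to 2.02%.

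The start of the remaining cluster, 6 KRAB genes from Zfp982 to Zfp933 (chr4:147492417-147848366), was at 13.3%. The DNMT3A lines were at 40.4% and 31.5%, the set a lines at 20.6% and 17.9% and the N656I lines at 14.5% and 3.37%. The set b lines were at 0% and 12.2%, the K777A lines at 3.57% and 4.68% and the N779A lines at 7.69% and 3.41%. The DNMT3A lines were the highest of the 12 and the N656I, set b, K777A and N779A lines were all below both set a lines. These values rest on 62 sites with 68 to 223 reads per line. Of the 62 sites 25.8% lay in recurring sequence, and without those the mean was 12.7%.

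KRAB genes and the other Zfp genes differed most in the last 3 kb. There the KRAB genes were at 41.2% and 38.6% with DNMT3A and at 7.86% and 9.03% with K777A, and the others at 28.8% and 30.2% and at 5.68% and 6.65%. The mean over 12 lines was 17.3% against 13.8%, a difference of +3.56 ± 3.51 points that was positive in all lines but DNMT3B set a line 2 (exact sign-flip permutation, adjusted p = 0.00235). In the body KRAB genes were 1.15 points lower, in 9 of 12 lines (adjusted p = 0.0188, same test). Of the sites in the last 3 kb 5.53% were dense in KRAB genes and 17.1% in the others. At equal density the difference in the last 3 kb was -3.79 points at 1 to 2 CpG, -0.10 at 3 to 5, +3.75 at 6 to 11 and +3.42 at 12 or more. It was positive in 2, 7, 11 and 7 of the 12 lines, and its adjusted p was 0.00739, 0.896, 0.00803 and 0.101 by the same exact permutation test. At 12 or more CpG it was +2.10 points without DNMT3A line 2, and at 3 to 5 it turned to +0.30 without DNMT3B set b line 1 and to +0.24 without N779A line 2. Of the KRAB sites there 12.5% lay in recurring sequence, against 2.20% of the others.

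Other families of related genes were measured in the same way. In 70 Zbtb, Zscan and Zkscan genes, which code zinc finger proteins with BTB or SCAN domains, the body was at 16.9%, within 0.19 ± 0.78 points of Zfp genes (exact sign-flip permutation, adjusted p = 0.451). With 1 line left out that difference ran from 0.11 points, without DNMT3B set b line 2, to 0.33 points, without DNMT3A line 2. In the last 3 kb Zfp genes lay 1.38 points higher, in 10 of 12 lines (adjusted p = 0.0763, same exact permutation test). Without DNMT3B set a line 2 they lay 1.84 points higher, in 10 of 11 lines, with an unadjusted p of 0.00586 by the same exact permutation test. The start of the 70 genes was at 0.79% against 1.13% in Zfp genes, lower in 12 of 12 lines. In the 1128 Olfr genes, the odorant receptors, which also lie in clusters, the body was at 13.4%, 3.72 ± 1.48 points below Zfp genes in 12 of 12 lines (adjusted p = 0.00144 for both, same test).

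Within arrays, CpG sites were compared outside fingers and inside them. The 339 genes with finger sites held 7533 of them, at 22.7% and 21.1% with DNMT3A, 10.2% and 8.32% with DNMT3B set b and 4.49% and 5.29% with K777A. Sites of the body and last 3 kb outside fingers were at 36.8% and 38.5%, 14.7% and 14.4%, and 7.50% and 8.63%. Of the finger sites 27.6% were dense, so sites were compared within density classes. The difference was +2.75, +1.98, +1.02 and +0.16 points from the sparsest to the densest class, and passed the test at 3 to 5 CpG only (higher in 10 of 12 lines, exact sign-flip permutation, adjusted p = 0.0245). The signs in the denser classes rested on single lines. Without DNMT3B set a line 2 the difference at 6 to 11 CpG was -0.36 points, and without DNMT3A line 1 that at 12 or more was -0.097 points (+0.34 without DNMT3B set a line 2). At 3 to 5 CpG it was +1.40 points without DNMT3B set a line 2 (higher in 9 of 11 lines).

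In tandem units of 84 bases, or 28 codons, each CpG was placed by its base within the unit. Of 5456 sites in tandem units, 3990 fell on 18 positions with at least 100 sites each, counted from 1 at the first base of the first cysteine codon. Position 66, at the junction of the threonine and glycine codons of the linker, was CCGG in 80.1% of its 256 sites. It was at 29.0% and 27.8% with DNMT3A, 17.1% and 14.3% with DNMT3B set b, 10.2% and 12.8% with N779A, and 2.91% and 1.18% with K777A. Position 81, just before the next finger, was ACGA in 53.1% and ACGT in 18.1% of its 254 sites, and was at 5.77% and 14.9% with set b and 10.6% and 13.6% with K777A. Position 43, TCGA in 42.0% of 226 sites, was at 16.9% and 15.3% with set b and 15.4% and 18.8% with K777A. K777A lines were below both set b lines at position 66 and overlapped them at positions 43 and 81. The set a values are not given by position because the narrow library ran from 0% to 100% there.

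**Figure D4:**
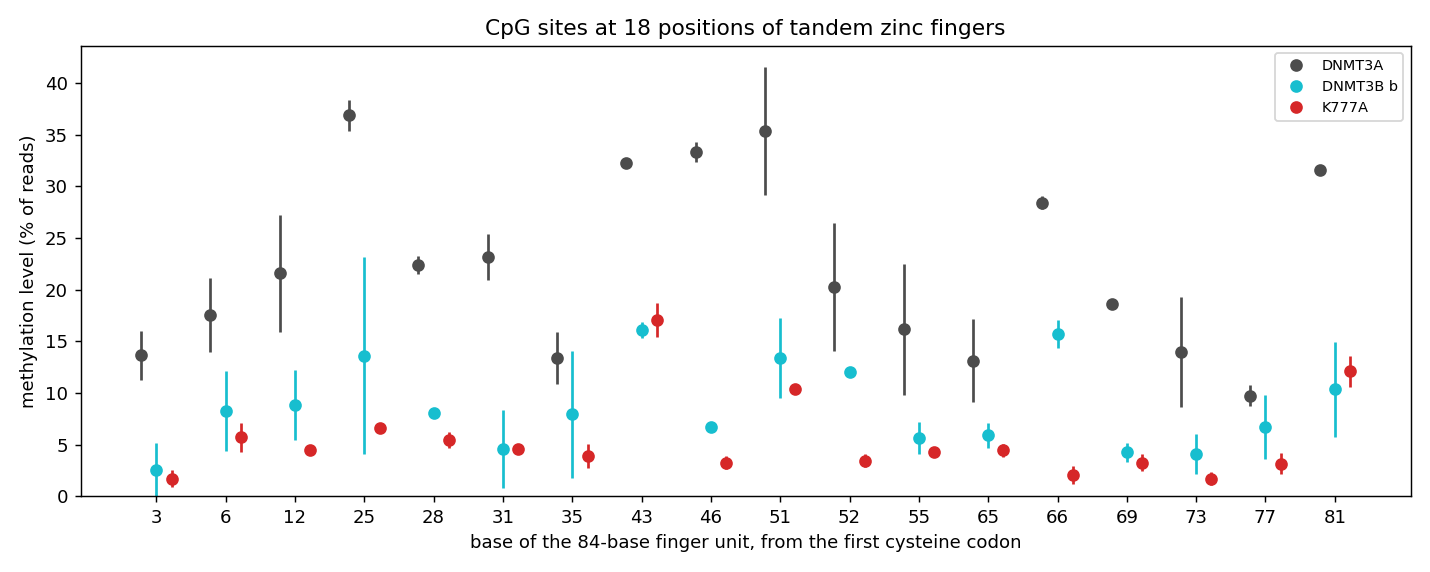
Methylation level (percent of reads) at the 18 positions of the 84-base finger unit with at least 100 CpG sites, for DNMT3A, DNMT3B set b and K777A, as the mean of 2 lines with bars that span both lines. At position 66 the 3 groups lie at 28.4%, 15.7% and 2.04%.

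In Zfp genes beyond the first 1 kb the differences between enzymes varied with the bases beside the CpG. Each context was merged here with its reverse complement, so that CCGA sites include TCGG sites. At CCGG sites the level was 34.6% and 36.7% with DNMT3A, 24.7% and 20.2% with DNMT3B set a, 26.0% and 19.0% with N656I, 21.3% and 18.8% with set b, 2.27% and 2.20% with K777A and 16.8% and 19.6% with N779A. The K777A mean was 0.111 of its WT mean there, and 0.0905 in other genes. At ACGT sites K777A was at 15.2% and 17% and set b at 12.2% and 13.2%, so that K777A lines lay above both WT lines (ratio 1.27, and 1.23 in other genes). N779A, at 16.6% and 17.7%, did so too (ratio 1.36). The ratio of K777A to WT was 0.210 at CCGA sites and 0.403 at TCGA sites. N656I and set a overlapped at CCGG (ratio 1.00), and N656I was lower at ACGT (ratio 0.536) and GCGC (2.93% against 7.20%, ratio 0.407). DNMT3A and set a overlapped at TCGA, at 32.2% and 29.2% against 31% and 29%, whereas at GCGC they were at 35.4% against 7.20% (ratio 4.92, and 5.57 in other genes). Against set a line 1 alone these ratios in Zfp genes were 0.912 at CCGG, 0.486 at ACGT and 0.443 at GCGC for N656I, and 0.991 at TCGA and 5.35 at GCGC for DNMT3A. Comparisons without overlap gave the smallest exact permutation p for 2 against 2 lines, 0.33, and Zfp and other genes were not tested against each other here.

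Individual genes were described by their level beyond the first 1 kb. A total of 203 genes, 105 clustered and 98 single, had at least 50 reads in every line. Their means over 12 lines ran from 0.873% to 30.2%, with quartiles of 13.0% and 20.3% and a median of 18%, and the median was 16.7% for clustered and 18.6% for single genes. The median gene was at 37.9% with DNMT3A, 14.7% with set a, 13.7% with N656I, 13.8% with set b, 8.14% with K777A and 13.0% with N779A.

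**Figure D5:**
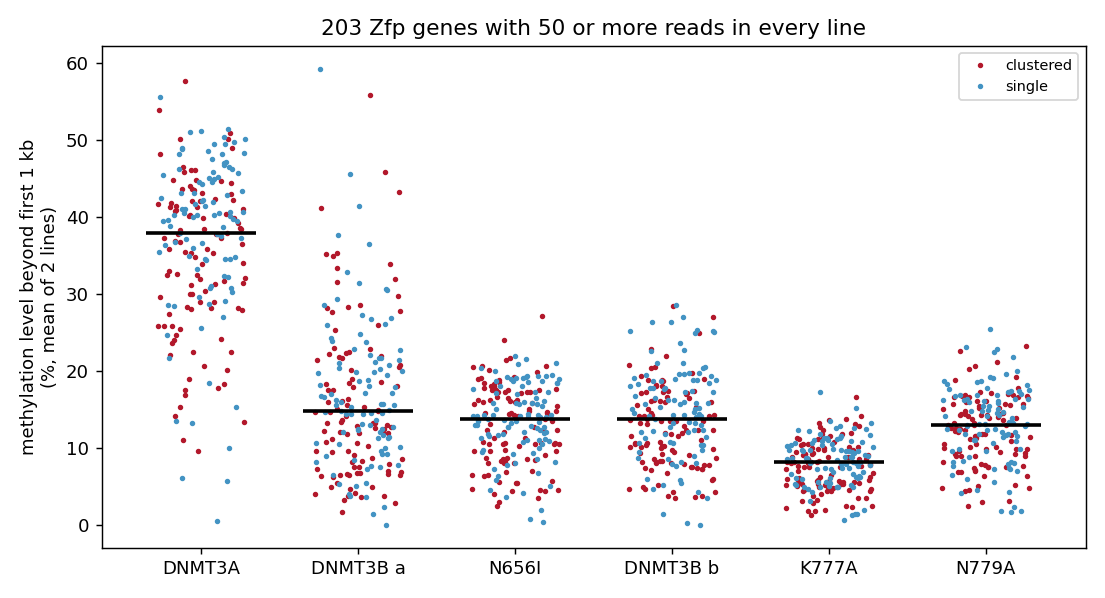
Methylation level beyond the first 1 kb (percent of reads, mean of 2 lines) of 203 Zfp genes in each of the 6 groups, clustered in red and single in blue, with the median as a bar. The medians run from 8.14% with K777A to 37.9% with DNMT3A, and the spread in DNMT3B set a includes the narrow library.

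By the rule for named genes, the 5 highest means were those of Zfp445, Zfp317, Zfp410, Zfp821 and Zfp202. Zfp445, a KRAB protein that acts with Zfp57 on imprinted regions, was at 51.2% and 48.9% with DNMT3A, 26.7% and 65.1% with set a, 35% and 19.3% with N656I, 24.8% and 25.0% with set b, 20.1% and 13.2% with K777A and 10.8% and 22.9% with N779A. Its mean was 30.2%, and 27.1% without the narrow library, the highest both times. The narrow library held the highest value of all 5 genes, 54.0% to 78.4%. Without it Zfp410, which activates Chd4, was at 24.6% and ranked 4, while Zfp317, Zfp821 and Zfp202 fell to ranks 17, 12 and 33, and Zfp951, Zfp873 and Zfp277 entered the top 5.

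The 5 lowest were Zfp503, Zfp36, Zfp703, Zfp316 and Zfp574. Zfp503 and Zfp703, a related pair of co-repressors, and Zfp36, the mRNA-decay protein tristetraprolin, which has fingers of another type, had no match to a C2H2 finger. Zfp503 stayed at 0% to 2.11% in all 12 lines. Zfp703 was at 1.55% and 9.89% with DNMT3A and at 0.81% to 6.17% elsewhere, and Zfp36 at 7.53% and 12.5% with DNMT3A and at 0% to 4.76% elsewhere. Zfp316 was at 8.73% and 10.6% with DNMT3A and 1.95% and 2.00% with K777A, and Zfp574 at 11% and 15.5% and at 6.35% and 3.54%. The first 4 were also the lowest without the narrow library.

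Genes with roles in ES cells and in repression lay on both sides of the median. Zfp148 was at 39.3% and 41.7% with DNMT3A, 18.5% and 14.5% with set b, and 9.99% and 11.4% with K777A. Zfp423, with 3915 or more reads in every line, was at 40.4% and 40%, 18% and 16.6%, and 6.61% and 8.12%, so that K777A was below both set b lines in both genes. Zfp568 was at 45.6% and 43.9% with DNMT3A, 10.6% and 17.7% with set b and 10.0% and 10.9% with K777A, which overlapped set b. Zfp462, a heterochromatin factor of ES cells, was at 41.3% and 42.0%, 10.5% and 13.2%, and 10.1% and 11.7%, again with an overlap. Zfp809 was lower, at 26.0% and 22.2% with DNMT3A and 2.21% to 12.3% in the other lines. Zfp57 was at 8.12% and 5.05% with DNMT3A and 0% to 7.09% elsewhere, from as few as 20 reads, so its body was low although its start was not.

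Counted gene by gene, both DNMT3A lines were above both set a lines in 160 of the 203 genes (78.8%), and below in 2, against 88% above and 0.105% below among the 12372 protein-coding genes with as many reads. Both K777A lines were below set b in 133 (65.5%, against 79% of all genes) and above in 9 (4.43%, against 1.2%). N656I was below set a in 51 (25.1%, against 30.5%) and above in 13 (6.40%, against 5%). N779A was below set b in 39 (19.2%, against 28.6%) and above in 27 (13.3%, against 9.48%). The median ratio of means was 2.49 for DNMT3A, 0.867 for N656I, 0.570 for K777A and 0.938 for N779A. Against set a line 1 alone, both DNMT3A lines were above it in 188 genes (92.6%, against 97.2% of all genes) and below in 2 (0.558% of all genes), and both N656I lines were below it in 122 (60.1%, against 66.3%) and above in 25 (12.3%, against 8.36%). The median ratios were then 2.14 and 0.760.

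Each gene was also tested for a change relative to the median gene of its line, by fitting limma to log2 odds of methylation beyond the first 1 kb. No Zfp gene passed an adjusted p of 0.05 in any comparison, of 120, 120, 260 and 254 tested for DNMT3A, N656I, K777A and N779A, and the share called was 0% among the 10126, 10133, 14134 and 13931 genes tested. At an unadjusted p under 0.05 in limma, 0 Zfp genes were higher and 6 lower with DNMT3A, 0 and 6 with N656I, 26 and 7 with K777A and 16 and 4 with N779A. Higher and lower are relative to the median gene here. Zfp622, among the 6 lower with DNMT3A, had a mean of 37.9% with DNMT3A against 29.4% with set a. As shares, the higher and lower genes were 0% and 5% of Zfp genes beside 0.928% and 2.07% of all genes for DNMT3A, 0% and 5% beside 0.641% and 0.967% for N656I, 10% and 2.69% beside 3.19% and 3.78% for K777A, and 6.3% and 1.57% beside 2.49% and 2.79% for N779A. The median change of Zfp genes was -0.06, -0.05, 0.19 and 0.08 on the log2 odds scale, beside -0.03, -0.01, 0.02 and 0.00 over all genes. Without centring on the median gene, limma called 45 Zfp genes for DNMT3A, all higher, where it called 54.7% of all genes higher and 0.00988% lower. For K777A it called 46, all lower, beside 27.8% of all genes, with 27.7% lower and 0.0354% higher, and for the other mutants 0. A quasi-binomial regression, also without centring, called 70 Zfp genes, all higher, for DNMT3A (74.5% of all genes), and 55, all lower, for K777A (47.6% of all genes, 47.5% lower and 0.0142% higher). It called 0 for N656I and N779A (0.168% and 0.287% of all genes). In simulated data for the centred test, 198 of 200 genes with a log2 change of 2 and 33 of 200 with a change of 1 were recovered for the DNMT3A comparison, and 110 and 0 of 200 for K777A. False calls numbered 12 and 2 for DNMT3A and 4 and 0 for K777A. The simulation drew the same spread between lines for all genes and lines, the narrow library included. In the measured DNMT3A comparison Zfp663 had a change of 3.54 with a standard error of 2.67 and was not called. How many measured changes of these sizes were missed was not tested.

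The partners of KRAB zinc finger proteins were taken as a list of 15 genes for co-repressor, histone methyltransferase, HP1 and remodeling proteins. Beyond the first 1 kb the highest mean over 12 lines was 24.2%, that of Trim24, a relative of Trim28. Setdb1, the H3K9 methyltransferase, was at 21.4%, and Trim28 was at 6.49%, with 13.8% for DNMT3A and 2.70% for K777A. The DNMT3A mean was above that of set a in 14 of the 15, and the K777A mean below that of set b in 13, where 92.6% of 19290 and 84.2% of 19416 protein-coding genes with reads in both groups showed the same. The starts of the 13 genes with at least 200 reads were at 0.0595% to 1.43%, and from few reads those of Atf7ip (67 reads) and Trim28 (78 reads) were at 31.3% and 20.5%. Limma called 0 of the 11, 11, 14 and 14 partners tested in the 4 comparisons, with lowest adjusted p-values of 0.776, 0.844, 0.696 and 0.892.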

How the data were processed

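Genomic DNA of 12 TKO ES cell lines was digested with MspI, BfaI and MseI for eRRBS. The authors deposited, for each CpG site and line, the counts of methylated reads (mC) and of all reads (allC), as raw counts that were not normalized. They trimmed read pairs with cutadapt (1.12 in the submitters' processing notes), aligned them with Bismark 0.18.1 and Bowtie 1.2 to mm10, discarded pairs that appeared unconverted at non-CpG cytosines, counted overlapping mates once and merged the strands. The lines were not pooled.

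The table was read with Python 3.11.15, NumPy 2.4.6 and pandas 2.3.3, and every sample column had a label. Sites were assigned to GRCm38 protein-coding genes. Levels are summed mC over summed allC. Group levels were compared by exact two-sided permutation over lines and differences within lines by exact sign flips (SciPy 1.17.1), with Benjamini-Hochberg adjustment over 53 comparisons. Genes with at least 10 covered sites and 50 reads in each of the 4 lines compared were tested with limma 3.58.1 (R 4.3.3) on log2((m + 0.5)/(u + 0.5)) of methylated (m) and unmethylated (u) reads, centred on the median of each line. The fit was on all protein-coding genes and was tested on simulated data with the same spread for all genes and lines. Read counts set the precision of these values and cover counting error only. Named genes were the 5 highest and 5 lowest means among genes with at least 50 reads in every line, together with genes of known function in ES cells, repression or development. The members, lists and tests were chosen with earlier results of these data known. Splits by KRAB match, the exclusion of sites whose 62 bases recur, the comparisons within CpG density classes and the promoter windows and Zfp316 stretch were added after seeing the data. So were values without single lines, except for the alternatives that left out each line in turn. Those alternatives and the equal density mix were planned. The WT sets follow the letters of the labels. Alternatives changed the read minimum, the sites used, the density mix, the centring, the test, the replicate block and the lines included. Figures were drawn with matplotlib 3.10.9.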

Additional observations from a re-analysis of the deposited data

Results flagged for a closer look

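The difference between clustered and single Zfp genes in the last 3 kb was positive in both DNMT3B set a lines, at 0.47 and 5.35 points with a mean of 2.91, whereas both lines of each of the other 5 groups were negative. The difference between the groups was not tested. The higher of the values comes from the narrow library, in which single genes were at 10.4% and clustered genes at 15.7% there. Without it the mean difference over the other 11 lines was -1.45 points, against -0.89 over all 12.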

How the results depend on the processing

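Of 231 alternative values computed for 13 results, 213 kept the direction and call of the value reported or stayed close to it. The level differences moved by more than the spread between lines for DNMT3A at 10 or more reads per site (12.2 points) and with an equal density mix (17.9), for K777A at 10 or more reads (-6.28) and without CCGG sites (-4.42), and for N779A at 5 or more (-2.05) and 10 or more reads (-2.54). By exact sign-flip permutation, restriction to the 407 shared sites gave +1.23 points for Zfp minus other genes in the body (p = 0.0742), -2.24 in the last 3 kb (p = 0.0981), -5.59 at the start, -2.26 for the last 3 kb minus the body (p = 0.123) and +2.28 for clustered minus single genes (p = 0.000977). An equal density mix gave -0.37 for the body (p = 0.0557) and +0.098 for the last 3 kb minus the body (p = 0.631) by the same exact test, with -1.48 for the start and -0.67 for the last 3 kb. The cause of these shifts was not tested.

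Zfp genes called numbered 45 for DNMT3A and 46 for K777A without centring, and 70 and 55 by quasi-binomial regression, which is not centred either. Without DNMT3B set a line 1, where the narrow library stands alone as WT and is assumed to vary like the other lines, 64 were called for DNMT3A (30 higher and 34 lower) and 52 for N656I (28 higher and 24 lower), where 49.3% and 40.2% of all genes were called. Over the lines left out in turn, calls of Zfp genes ranged from 0 to 64 for DNMT3A and 0 to 52 for N656I, both highest in the fits with those shares of all genes, and from 0 to 0 for K777A and N779A. Level differences ranged from 13.8 to 16.5 for DNMT3A, -5.80 to -4.69 for K777A, -4.84 (without N656I line 1) to -1.64 (without N656I line 2), and -1.79 to -1.04 for N779A. Within lines the ranges were -1.0 to -0.87 for the start, -1.11 to -0.83 for the body, -1.80 to -1.52 for the last 3 kb, -2.38 to -1.96 for the last 3 kb minus the body and -3.61 to -2.92 for clustered minus single genes. With the replicate number as a block, 0 Zfp genes were called in all 4 comparisons. The numbers did not pair the lines, since deviations of same-numbered lines correlated at -0.0014, 0.0055, -0.026 and -0.0027 across genes.

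Depth limits individual genes, since 203 of 357 had 50 reads in every line.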
